A study of Mus musculus with 8 samples.

Results

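The Mu class of glutathione transferases in mouse liver was examined through its 7 genes, Gstm1 to Gstm7, all of which were measured among 20738 named genes. Their members were taken by gene symbol, which gave 24 features (spots) of the 62976 on each array: 2 for Gstm1, 3 for Gstm2, 2 for Gstm3, 2 for Gstm4, 1 for Gstm5, 3 for Gstm6 and 11 for Gstm7. Livers came from male mice of the outbred CD-1 stock that received for 7 days either a control diet (0 ppm) or one containing NaPB (sodium phenobarbital) at 2500 ppm. Each diet had 4 one-colour Agilent arrays hybridised with Cy3-labelled cRNA from total RNA, and the title of the series places these livers beside work on humanised livers that was not analysed here. The labels give no age and do not tie each array to a mouse of its own, so p-values measure the spread between these samples, which may be technical.

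Glutathione transferases join the thiol of glutathione to electrophilic compounds, among them many products of P450 oxidation, and the conjugate is then exported and trimmed to a mercapturic acid. The Mu enzymes are cytosolic dimers whose subunits are encoded by neighbouring genes, and Gstm1 is a principal hepatic subunit in mice. Phenobarbital acts in hepatocytes through the nuclear receptor CAR, and transcription of several transferase genes is also known to respond to Nrf2, the regulator of antioxidant genes, which binds antioxidant response elements.

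On the NaPB diet 5 of the 7 genes rose and the other 2, Gstm6 and Gstm7, did not pass the test. By the brightest feature of each, Gstm3 was 44.2-fold higher, Gstm2 10.6-fold, Gstm1 7.74-fold, Gstm5 5.64-fold and Gstm4 5.35-fold. The other Gstm3 feature, brighter on the control arrays, gave 12.6-fold. A gene was called at an adjusted p below 0.05 in limma (linear model with diet as its term, Benjamini-Hochberg over all genes, each gene by its brightest feature, judged by mean log2 value over both diets). Of all genes, 0.391% were called higher and 1.01% in either direction. Lower calls made up 0.617% of all genes. The diets did not overlap for the same 5 members, all higher, where 2.72% of all genes were higher and 7.04% differed either way without overlap. The median log2 fold change was 2.49 over the members and 0.01 over all genes. The members were chosen with earlier results of these data known, so the shares over all genes stand beside these counts as description.

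In the gene order of the GRCm38.p6 reference table the 7 genes lie on chromosome 3 with no other protein-coding gene between them, in the order Gstm5, Gstm7, Gstm6, Gstm3, Gstm2, Gstm1 and Gstm4. Sequences of 250 bases before the start site were taken from RefSeq (build GRCm38.p6) for all 7 genes, 12 start sites in all. The 3 shown here belong to members that rose and that have a single start site in that table. They are written 5′ to 3′ on the strand of the gene. Capitals mark matches on either strand to the core of the antioxidant response element (TGACNNNGC or TGAGNNNGC) or to a nuclear receptor half-site (AGGTCA or AGTTCA).
Gstm3, chr3:107969175-107969424, minus strand: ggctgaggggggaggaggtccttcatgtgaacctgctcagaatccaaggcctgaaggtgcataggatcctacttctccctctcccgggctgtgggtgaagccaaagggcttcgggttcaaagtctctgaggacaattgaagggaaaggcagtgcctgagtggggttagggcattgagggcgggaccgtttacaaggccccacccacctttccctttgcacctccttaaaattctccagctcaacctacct
Gstm2, chr3:107986421-107986670, minus strand: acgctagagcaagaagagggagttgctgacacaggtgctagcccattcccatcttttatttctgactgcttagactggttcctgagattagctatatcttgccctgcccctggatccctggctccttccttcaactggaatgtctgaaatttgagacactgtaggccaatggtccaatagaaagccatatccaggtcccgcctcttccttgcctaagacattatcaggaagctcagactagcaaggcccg
Gstm5, chr3:107895604-107895853, plus strand: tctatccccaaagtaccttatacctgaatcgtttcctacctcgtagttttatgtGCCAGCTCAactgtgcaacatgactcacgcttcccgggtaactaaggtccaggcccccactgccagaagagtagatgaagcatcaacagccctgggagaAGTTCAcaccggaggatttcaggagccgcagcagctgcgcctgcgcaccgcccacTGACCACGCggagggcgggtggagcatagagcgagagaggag

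The windows of Gstm3 and Gstm2, the genes with the largest fold changes, held none of these letters. The Gstm5 window held TGACCACGC at bases -42 to -34 from the start site, GCCAGCTCA, which reads TGAGNNNGC on the opposite strand, at -196 to -188, and AGTTCA at -97 to -92. Over the 12 Gstm windows TGACNNNGC occurred in 2, those of Gstm5, which rose, and of a start site of Gstm7, which did not pass. The same letters occurred in 10.2% of 32817 upstream windows of the mouse genome. TGAGNNNGC occurred in 1 Gstm window and 14.4% of all windows, AGGTCA in 0 and 14.0%, and AGTTCA in 1 and 11.9%. The direct repeat DR4 of such half-sites, which overlaps them in its letters, was in no Gstm window and in 0.104% of all windows. A match is a description of these letters and an absence says only that they are not in these 250 bases.

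Gstm1 was at 153, 64.7, 97.8 and 98.9 (deposited intensity, control replicates 1 to 4) and at 957, 886, 930 and 435 (NaPB replicates 1 to 4). Every NaPB array was above every control array, with NaPB replicate 4 the lowest of its diet and control replicate 2 the lowest of the controls. The log2 fold change was 2.95 ± 0.36 (limma SE, n = 4 per diet; limma adjusted p = 0.00485). The dimmer Gstm1 feature, fitted with all 62976 features, gave 2.71 ± 0.37 (limma adjusted p = 0.0075).

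Gstm2, which encodes another Mu subunit, was at 28, 8.98, 29.4 and 19.8 with the control diet and at 286, 257, 250.5 and 98.8 on the NaPB arrays. The diets were apart, and the same arrays were lowest. Its log2 fold change was 3.40 ± 0.46 (limma adjusted p = 0.00742), and its 3 features lay between 3.05 and 3.55, all called among the features. Intensities of different features are not compared as levels, since each probe has its own brightness.

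Gstm3 was at 22.1, 6.12, 15.7 and 17.4 with the control diet and at 899, 834, 758 and 249 on the NaPB arrays. Every NaPB array lay far above the controls, and again control replicate 2 and NaPB replicate 4 were lowest. Gstm3 rose by 5.47 ± 0.50 log2 units (limma adjusted p = 0.00152). Its other feature, the brighter of the pair on the control arrays, was at 28.2, 13.4, 26 and 23.2 against 408, 366, 321 and 121. That feature was also called but gave a smaller log2 fold change of 3.66 ± 0.43 (12.6-fold; limma adjusted p = 0.00398). Taking the feature with the highest mean over both diets favours the feature that moved more, so the size of the Gstm3 difference is 12.6-fold or 44.2-fold according to the feature.

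Gstm4 was at 22.3, 11.1, 17.9 and 16.3 with the control diet and at 113, 112, 103 and 45.2 on the NaPB arrays. Gstm4 thus rose by 2.42 ± 0.37 log2 units (limma adjusted p = 0.0127). Its dim second feature lay at 3.67, 3.47, 3.28 and 0.322 on the NaPB arrays against 0.449 to 0.891 on the controls, so that NaPB replicate 4 fell below every control array, and it was not called (log2 1.59 ± 0.69, limma adjusted p = 0.486). With the features of each gene averaged Gstm4 was not called (limma adjusted p = 0.133), nor was it without NaPB replicate 1 (limma adjusted p = 0.0509), when 0.174% of all genes were called higher.

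Gstm5, the mouse relative of a human Mu gene known mainly from brain and testis, was dim in liver, at 0.406, 0.24, 0.537 and 0.29 with the control diet and at 2.1, 2.24, 2.43 and 1.34 on the NaPB arrays. All values were above the floor, taken as 2 times the lowest value of each array (0.0506 to 0.119). On the control arrays the mean log2 of Gstm5 was -1.51, below the -0.94 of the median gene. The size of its rise thus rests on dim control values. Gstm5 rose by 2.49 ± 0.33 log2 units (limma adjusted p = 0.00698). With a pseudocount of 1 added before the log it was 1.14, still called, and its highest limma adjusted p over 20 alternatives was 0.0287.

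Gstm6 was at 30.8, 11.6, 24.8 and 22.7 with the control diet and at 23.8, 22.4, 21.6 and 5.92 on the NaPB arrays. The diets overlapped, and NaPB replicates 1 to 3 lay within the range of the controls. The log2 fold change was -0.39 ± 0.48 (limma adjusted p = 0.859), and it was 0.09 without NaPB replicate 4. Its other 2 features gave -0.10 and 0.16.

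Gstm7 was at 2.08, 1.25, 1.81 and 1.55 with the control diet and at 1.59, 1.38, 0.999 and 0.554 on the NaPB arrays. The log2 fold change was -0.65 ± 0.36 (limma adjusted p = 0.629), which was -0.34 without NaPB replicate 4. The other 10 features of Gstm7 were dimmer, with values between 0.133 and 1.08, and their log2 fold changes ran from -0.80 to 0.28. Their geometric means, 0.239 to 0.365, lay near the array medians of 0.288 to 0.396. Whether these 10 are replicate spots of 1 probe is not given in the sources used here. The diets did not overlap for 2 of the 11 features, both lower on NaPB, where 4.38% of all features were lower without overlap.

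**Figure D1:**
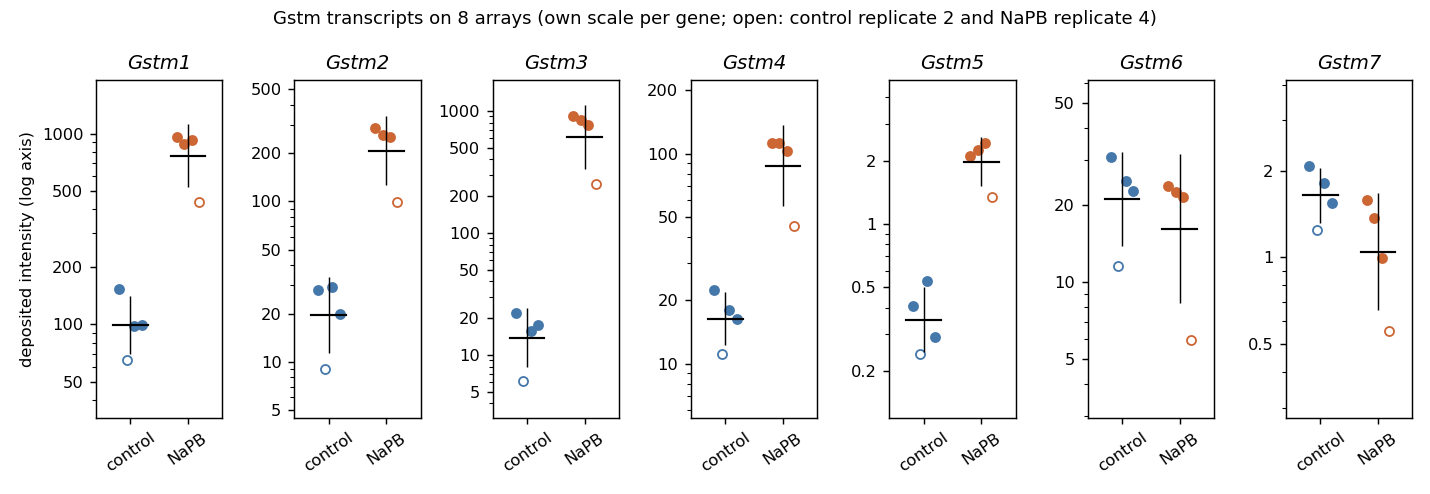
Deposited intensity (log axis, own scale per gene) of the brightest feature of each Gstm gene on 4 control and 4 NaPB arrays; horizontal bars are geometric means, vertical bars 1 SD of the log2 values, and open points are control replicate 2 and NaPB replicate 4. Gstm1 to Gstm5 lie higher on every NaPB array, whereas Gstm6 and Gstm7 overlap between the diets.

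Over the 24 features, 9 were called, all higher, where 0.329% of all features were called higher and 1.02% in either direction. They were 9 of the 10 features of Gstm1 to Gstm5. None of the 14 features of Gstm6 and Gstm7 was called by limma, and 0 of them had an unadjusted p below 0.05. As 10 of them may be spots of 1 Gstm7 probe, the 14 are not taken as independent. Without NaPB replicate 4 the count of called features was 10 (0.507% of all features called higher). With NaPB replicate 1 or 3 left out 8 features were called (0.114% and 0.133%). Members of the cluster resemble each other in sequence and probe sequences were not used here, so the member a feature reads rests on the annotation alone.

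**Figure D2:**
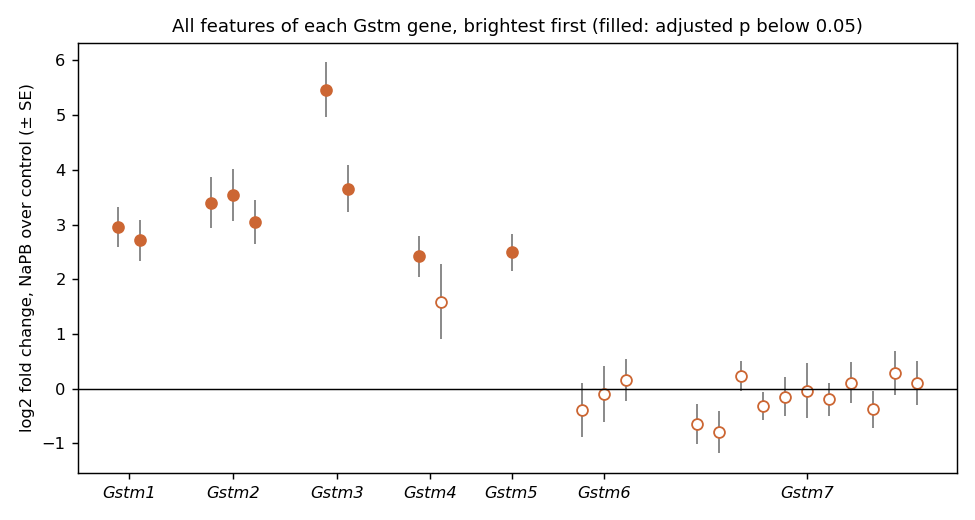
Log2 fold change, NaPB over control, with the limma SE, for each of the 24 Gstm features, ordered within a gene by mean brightness; filled points have an adjusted p below 0.05 over all 62976 features. The Gstm3 features stand at 5.47 and 3.66, and the 14 features of Gstm6 and Gstm7 lie between -0.80 and 0.28.

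Whether the members differed from each other in their response was tested on the log2 ratio of 2 members within each array, compared between the diets by an exact permutation test over the 70 splits of the 8 arrays (two-sided, Benjamini-Hochberg over the 21 pairs). The smallest p this design can give is 0.0286. With 17 pairs at that p the adjustment gave 0.0353, so passing also depended on how many other pairs reached it. In 17 of the 21 pairs the responses differed at the smallest p, including all 10 pairs of a member that rose with Gstm6 or Gstm7. Those 10 pairs were formed by the calls on these same arrays. Their passing largely follows from the calls and is no further support for them. By the brightest feature of each, the Gstm3 response exceeded that of Gstm6 by 5.86 ± 0.13 log2 units (SE, n = 4 per diet, exact permutation, adjusted p = 0.0353).

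Among the 5 genes that rose, 7 of 10 pairs differed. The response of Gstm1 minus that of Gstm3 was -2.51 ± 0.26 log2 units and that of Gstm2 minus Gstm3 -2.07 ± 0.18, so Gstm3 rose more than either. Gstm3 also rose more than Gstm5 by 2.97 ± 0.41 and more than Gstm4 by 3.05 ± 0.24. With the Gstm3 feature that is brighter on the control arrays the response of Gstm2 minus that of Gstm3 was -0.26 log2 units and did not pass (exact permutation p = 0.2, adjusted p = 0.221). With that feature the other Gstm3 pairs passed at smaller sizes (exact permutation, adjusted p = 0.0375 for each). Gstm1 minus Gstm3 was -0.71 ± 0.18 log2 units, Gstm3 minus Gstm5 1.17 ± 0.29 and Gstm3 minus Gstm4 1.24 ± 0.11. Gstm3 minus Gstm6 was 4.05 ± 0.12 and Gstm3 minus Gstm7 4.31 ± 0.16. By their brightest features Gstm2 rose more than Gstm4 by 0.98 ± 0.21 and more than Gstm5 by 0.91 ± 0.28, and Gstm1 more than Gstm4 by 0.53 ± 0.09. The log2 fold changes of the 2 Gstm4 features were 2.42 and 1.59, and those of the 2 Gstm1 features 2.95 and 2.71. The test does not cover that spread. The Gstm2 and Gstm5 pair did not pass with averaged features (exact permutation p = 0.0571, adjusted p = 0.0667), nor with any 1 of the 4 control arrays left out (0.71 to 1.01 log2 units, exact permutation p = 0.0571). The Gstm2 and Gstm4 pair did not pass with any 1 of the 4 NaPB arrays left out (0.94 to 1.02 log2 units, exact permutation p = 0.0571).

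The 4 pairs that did not pass were Gstm1 with Gstm2 (a difference of -0.45 ± 0.25 log2 units), Gstm1 with Gstm5 (0.46 ± 0.25), Gstm4 with Gstm5 (-0.08 ± 0.23) and Gstm6 with Gstm7 (0.26 ± 0.26). Their exact permutation p were 0.143, 0.143, 0.714 and 0.314, and adjusted 0.158, 0.158, 0.714 and 0.33. These do not show that the members of a pair respond alike, and Gstm1 with Gstm2 passed without control replicate 3 (-0.65 log2 units, exact permutation adjusted p = 0.0353). With a pseudocount of 1, Gstm1 minus Gstm5 was 1.80 log2 units and Gstm4 minus Gstm5 1.21. Both then passed (exact permutation, adjusted p = 0.0316 for each). Without a pseudocount Gstm4, Gstm5 and Gstm1 followed each other in order of response, and of their 3 pairs that of Gstm1 with Gstm4 passed.

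**Figure D3:**
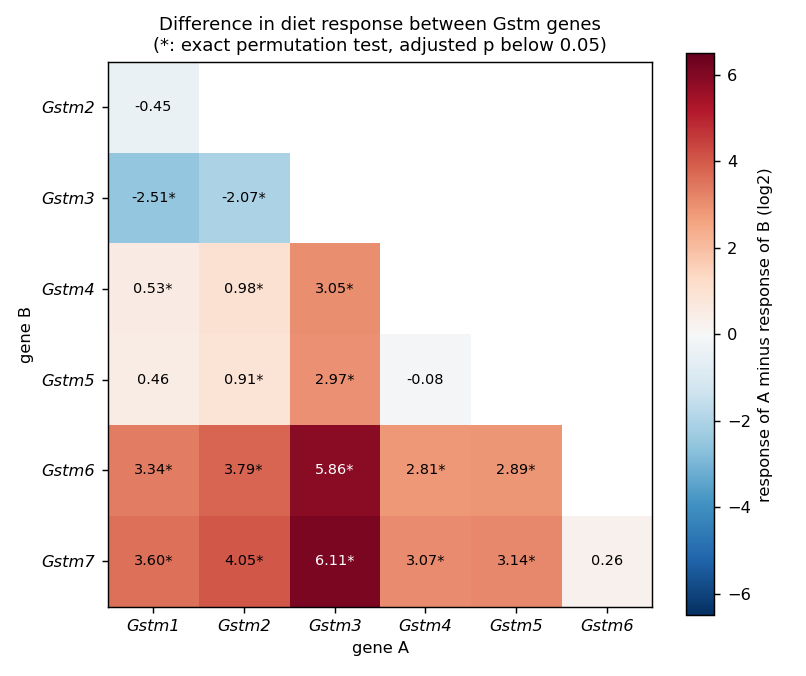
Difference between 2 Gstm genes in their diet response (gene A in columns minus gene B in rows, log2 units; red where A responded more), for all 21 pairs; an asterisk marks an adjusted p below 0.05 in the exact permutation test. Each gene is read by its brightest feature. The Gstm6 and Gstm7 rows hold the largest differences, up to 6.11 for Gstm3 with Gstm7, and the Gstm6 with Gstm7 cell holds 0.26.

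The arrays within a diet were not alike for these genes. NaPB replicate 4 was the lowest of its diet for 7 of 7 members, against 43.7% of all genes, and for 21 of 24 features. Control replicate 2 was the lowest of the controls for 7 of 7 members, against 34.7% of all genes, and for 15 of 24 features. The shares over all features are not given here. NaPB replicates 1 to 3 lay close together, with a log2 SD between 0.06 and 0.12 for Gstm1 to Gstm6 and 0.34 for Gstm7. NaPB replicate 4 lay below the mean of those 3 arrays by 1.09 log2 units for Gstm1, 1.42 for Gstm2, 1.73 for Gstm3, 1.27 for Gstm4, 0.75 for Gstm5, 1.93 for Gstm6 and 1.23 for Gstm7. It was present both for the genes that rose and for the 2 that did not pass.

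The median gap was 1.27 over the members, 0.20 over all genes and 0.89 over the brightest 1037 genes (those above the 95th percentile of mean log2 intensity). The 99th percentile of this array was 62.3 times its 75th, that of control replicate 2 was 65.8 times, and the ratio ran from 81.1 to 125 on the other arrays. Its part in the Gstm values was not tested. Control replicate 1 also stood apart, with the lowest median correlation with the other arrays across genes (0.914, against 0.931 to 0.950 for the rest). Without NaPB replicate 4 the same 5 members were called (1.02% of all genes were called higher), with log2 fold changes of 3.22 for Gstm1, 3.75 for Gstm2, 5.90 for Gstm3, 2.74 for Gstm4 and 2.68 for Gstm5. Without both NaPB replicate 4 and control replicate 1 the same 5 were called, against 1.8% of all genes called higher.

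As a check on tissue, the summed intensity of 9 measured hepatocyte markers was 4984 to 8340 on the control arrays and 4353 to 6347 on the NaPB arrays. Limma called none of these 9 (2 had an unadjusted p below 0.05), and their median log2 fold change was -0.37. With 1.01% of all genes called in either direction, a count of 0 in 9 lies near the background. Of the lists for 8 other cell types (cholangiocytes, Kupffer cells, endothelium, stellate cells, neutrophils, lymphocytes, erythroid cells, and fat with muscle), 1 gene in all was called, S100a8 of 5 neutrophil markers, whose sum was 29.4 to 124 on the control and 73.7 to 193 on the NaPB arrays. The sum of 8 Kupffer cell and macrophage markers was 24.8 to 29 on the control arrays and 17.7 to 21.3 on the NaPB arrays, without overlap, with 0 of 8 called by limma, 2 at an unadjusted p below 0.05, and Timd4 at the floor on every array. The part of these cells in the Gstm values was not tested, and in whole liver a change in the number of cells cannot be told apart from a change in RNA per cell.

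For the 5 measured protein-coding genes on each side of the cluster the median log2 fold change was -0.03. Limma called 0 of these 10, a count near the 1.01% of all genes called, and 2 had an unadjusted p below 0.05. Next to Gstm5 lies Eps8l3, an adaptor gene related to the Egfr substrate Eps8, whose 4 control values all lay at the floor (0.0361 to 0.0975) and at 0.0847 to 0.154 on the NaPB arrays, with overlap (limma adjusted p = 0.28). Next to Gstm4 lies Ampd2, an AMP deaminase gene, at 5.89, 2.99, 4.9 and 4.1 on the control arrays and 3, 2.57, 2.5 and 1.28 on the NaPB arrays, with overlap (log2 -0.96 ± 0.34, limma adjusted p = 0.325). The remaining 8, Slc6a17, Ubl4b, Ahcyl1, Csf1, Gnat2, Gnai3, Gpr61 and Amigo1, lay between -0.67 and 0.61. Gstm7 and Gstm6, which did not pass, lie between Gstm5 and Gstm3, which rose.

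**Figure D4:**
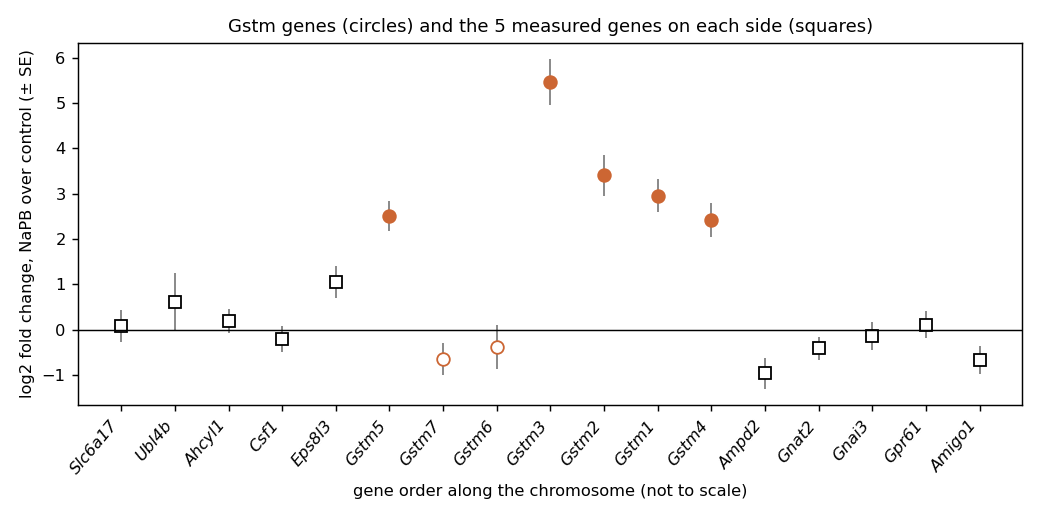
Log2 fold change, NaPB over control, with the limma SE, for the 7 Gstm genes (circles) and 5 measured protein-coding genes on each side (squares) in gene order along chromosome 3, not to scale; filled symbols have an adjusted p below 0.05. The 5 filled symbols are Gstm5, Gstm3, Gstm2, Gstm1 and Gstm4, and none of the 10 squares is filled.

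The genes with the profile most like that of Gstm1 were P450 genes for the most part. Likeness was the root mean square difference over the 8 arrays of log2 values, each gene first set to 0 at its control mean, among genes above the median of mean intensity. Nearest were Cyp2c54 (0.09 log2 units), Cyp2c50 (0.12), Cyp2c39 (0.21), Tnfrsf11a, a receptor gene of the tumour necrosis factor family (0.29), and Cyp2c37 (0.33). Cyp2c54 was at 55.4, 21.4, 32.4 and 33.7 on the control and at 325, 357, 312 and 145 on the NaPB arrays, with control replicate 2 and NaPB replicate 4 lowest as for Gstm1, although NaPB replicates 1 to 3 stood in another order. It was picked by its likeness over these same arrays, so the shared low arrays follow from that choice. The nearest member of its own class, Gstm4, was at 0.39, followed by Gstm2 at 0.44 and Gstm5 at 0.45.

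The profile of Gstm3, read by its feature with a log2 fold change of 5.47, had no neighbour as close. The other Gstm3 feature was not compared in this way. Nearest were Gsta1, an Alpha class transferase gene (0.59), Mical1, a monooxygenase gene of the actin cytoskeleton (0.63), Meig1, a gene of spermatogenesis (0.64), Prom1, which encodes prominin-1 (0.66), and 1810053B23Rik, an uncharacterised gene (0.77). Of these 5 only Gsta1 was above the median gene on the control arrays. The other 4 met the brightness rule through their NaPB values, so their places in this order rest on dim control values, and Mical1, Meig1 and Prom1 were at the floor on 1, 2 and 2 control arrays. Prom1 was called by the feature used here but not by the one brighter on control arrays (limma adjusted p = 0.591), and neither Prom1 nor Mical1 was called with a pseudocount of 1 (limma adjusted p = 0.116 and 0.0755). Cyp2b10, the classical P450 of the phenobarbital response, was at 3.72, 0.863, 2.98 and 5.22 on the control and at 521, 491, 430 and 77.7 on the NaPB arrays, with NaPB replicate 4 lowest as for the Gstm genes.

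Among 100 other measured genes, in 4 lists of glutathione metabolism and 1 of regulators, 4 were called, all higher, where 0.391% of all genes were called higher. The lists were chosen with earlier results of these data known, so this is not an independent result. The called genes were 3 of 18 transferase genes of other classes and 1 of 19 genes of conjugate export and mercapturic acid formation. The Alpha class genes Gsta1 (log2 5.01 ± 0.48, limma adjusted p = 0.00158) and Gsta2 (4.00 ± 0.40, limma adjusted p = 0.0018) were called in each fit with 1 array left out. The Theta class gene Gstt3 (2.67 ± 0.52, limma adjusted p = 0.0433) was at 8.82, 4.45, 13.2 and 6.07 on the control and at 75.6, 78.6, 53.9 and 16.2 on the NaPB arrays. Gsto2, of the Omega class, was lower on every NaPB array but did not pass (-1.61 ± 0.35, limma adjusted p = 0.0628). The median log2 fold change of the 18 genes was 0.27.

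For export and mercapturic acid steps the called gene was Abcc4, an efflux transporter gene, at 0.194, 0.14, 0.0994 and 0.115 on the control and at 1.45, 1.31, 1.02 and 0.251 on the NaPB arrays (log2 2.65 ± 0.52, limma adjusted p = 0.0421). With a pseudocount of 1 neither Abcc4 (log2 0.77, limma adjusted p = 0.164) nor Gstt3 (log2 2.52, limma adjusted p = 0.0997) was called. Abcc3, which exports conjugates towards blood, was at 14.7 to 18.5 with the control diet and at 47.5, 49.8, 43.5 and 20.7 on the NaPB arrays, without overlap (1.15 ± 0.32, limma adjusted p = 0.167). Dpep2, a dipeptidase gene at the floor on all 4 NaPB arrays, and Nat8, an acetyltransferase gene of the last mercapturic acid step, had adjusted p of 0.325 and 0.36 in limma. When single arrays were left out, Abcc4 and Gstt3 were called if NaPB replicate 4 was the missing array and in none of the other 7 fits, where limma gave adjusted p of up to 0.136 and 0.138.

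Of 22 genes of glutathione synthesis and recycling limma called 0, 2 had an unadjusted p below 0.05, and the median log2 fold change was 0.14. With 1.01% of all genes called, counts of 0 in lists of this size lie near the background, here and for the lists that follow. Those with the smallest p were Bhmt (-1.10 ± 0.38) and Cbs (-0.99 ± 0.38), of homocysteine use, then Slc3a2 (-0.47 ± 0.29), of amino acid uptake, and Pgd (0.69 ± 0.43), of NADPH supply. For Gclc, the catalytic subunit gene of the first step of glutathione synthesis, the diets differed by -0.80 ± 0.56 on the log2 scale (limma adjusted p = 0.74). Gclc is named after its values were seen, and 13 of the 22 genes of this list lay above 0. Of 19 other enzymes that use glutathione none was called and 3 had an unadjusted p below 0.05, the smallest p being those of Glrx (1.22 ± 0.39), Gpx7 (1.35 ± 0.52, at the floor on 2 control arrays), Gpx4 (0.91 ± 0.36) and Gpx8 (0.66 ± 0.37).

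Of 22 regulator genes limma called 0, again near the 1.01% of all genes called, and 2 had an unadjusted p below 0.05. The share of all genes at an unadjusted p below 0.05 is not given here, for this or the other lists. Those with the smallest p were Ppara (-0.94 ± 0.30), Egfr (-1.37 ± 0.50), Ahr (0.92 ± 0.54) and Stat5b (-0.48 ± 0.29). Egfr was at 11.7 to 17 on the control arrays, at 2.54, 6.16 and 4.17 on NaPB replicates 1 to 3 and at 16.7 on NaPB replicate 4, where it lay within the control range. Without NaPB replicate 4 the 5 lists held 11 called genes (1.76% of all genes were called in either direction), the added ones being Gstt1, Abcc2, Abcc3, Glrx and Glrx5, which rose, and Chac1 and Egfr, which fell. With any 1 control array or NaPB replicate 1 or 2 left out the lists held 2, Gsta1 and Gsta2, and without NaPB replicate 3 they held 3, with Gsto2 lower. Nqo1, a classical Nrf2 target, was at the floor on 3 control and 2 NaPB arrays, and Cyp3a11, a P450 gene responsive to CAR and PXR, stood 1.24 ± 0.39 log2 units higher on NaPB without passing (limma adjusted p = 0.237). Among fits with a single array left out, Cyp3a11 was called in that without NaPB replicate 4 alone (limma adjusted p = 0.0475), and array weights called it too (limma adjusted p = 0.0164).

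**Figure D5:**
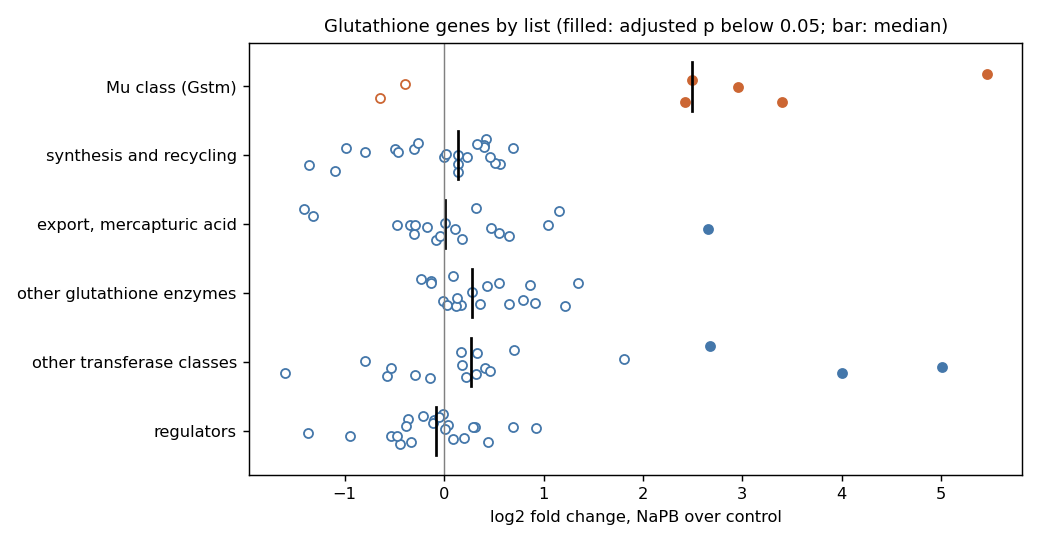
Log2 fold change, NaPB over control, of the 7 Gstm genes and of 100 other genes in 5 lists of glutathione metabolism and its regulators; filled points have an adjusted p below 0.05 and bars are list medians (vertical positions within a list are arbitrary). Filled points are 5 Gstm genes, Gsta1, Gsta2, Gstt3 and Abcc4, and the other list medians lie between -0.08 and 0.28 against 2.49 for the Gstm genes.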

How the data were processed

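The files hold spot intensities on a linear scale, deposited by the authors for 62976 features on 8 one-colour arrays and quantified with Agilent Feature Extraction 10.7, per the submitters' processing notes. The 75th percentile was 0.952 to 0.974 on every array, which places each array on a common scale near that point. How the scale was set, and any background correction or spot flags: not given in the sources used here. Of the features, 31465 carried 1 gene symbol and 31511 none; symbols were updated through the GRCm38.p6 gene table, mostly by accession (29050), and 3282 changed.

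Values were taken as log2 intensity with no pseudocount, scaling or filter. limma 3.58.1 in R 4.3.3 was run on the 20738 genes and again on all features, and it was tested on simulated data, as was the pair test. The number of arrays limits the precision. Other steps ran in Python 3.11.15 (pandas 2.3.3; numpy 2.4.6; figures with matplotlib 3.10.9). Named genes are the 7 members, 5 measured genes on each side, called list members or the 4 of smallest p, the 5 nearest profiles to Gstm1 and Gstm3, and the index genes Cyp2b10, Cyp3a11 and Nqo1; Gclc and genes called only without NaPB replicate 4 are named after their values were seen. The members and lists were chosen with earlier results of these data known. Alternatives were quantile normalization, a 75th percentile shift, filters on dim genes, averaged features, pseudocounts, another variance model, weights per array, a replicate block, other thresholds and leaving out each array. Omitting both control replicate 1 and NaPB replicate 4, choosing features by control brightness, and leaving out each array in the pair test were added after seeing the data.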

Additional observations from a re-analysis of the deposited data

Results flagged for a closer look

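In groups of 4 arrays, the gap between the lowest or highest array and its nearest neighbour was set against the range of the group and judged by Dixon's critical value at the 95% level, for both diets of the 7 members and of Cyp2b10, Cyp3a11 and Nqo1. Chance marks about 1 group in 20, and 6 of 20 groups were marked. All 6 were NaPB groups with NaPB replicate 4 as the low array: Gstm1 (gap over range 0.902), Gstm2 (0.874), Gstm3 (0.868), Gstm4 (0.908), Gstm6 (0.929) and Cyp2b10 (0.898). These groups share that array and so are not independent of each other. Gstm6, which did not pass between the diets, had the widest relative gap. No control group was marked.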

How the results depend on the processing

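Gstm1, Gstm2, Gstm3 and Gstm5 were called under all 20 alternatives and Gstm4 under 18, the exceptions being averaged features and the fit without NaPB replicate 1. The log2 fold change of Gstm3 ran from 3.66 to 6.12, and those of Gstm1 from 2.75 to 3.43, Gstm2 from 3.03 to 3.93, Gstm4 from 2.01 to 2.89 and Gstm5 from 1.14 to 2.75. At a threshold of 0.01, 4 members were called. The median over the members was 2.31 to 2.74 with 1 array left out, and 16 to 19 of the 21 pairs differed in response, 16 or 17 of them with 1 array left out (35 splits, smallest exact permutation p = 0.0286), which was run after the data were seen. The count over all genes, 209, was 328 with quantile normalization, 812 with array weights, 58 and 364 at thresholds of 0.01 and 0.1, 570 without control replicate 1 and NaPB replicate 4, and 88 to 365 with 1 array left out. With the replicate number as a block it was 135. Same-numbered arrays correlated at 0.23, -0.29, 0.04 and 0.23 across genes, and 2 of 8 arrays correlated best with their own number. No pairing by number was seen, though so few arrays cannot exclude one. With the block 5 members were called. The list count, 4, was 7 with quantile normalization, 2 with a pseudocount of 1, 11 with array weights, 16 without both doubted arrays, and 2 to 11 with 1 array left out. Array weights called 1 flanking gene, Eps8l3. The sign turned, never past the threshold, for Gstm6 (array weights 0.043, without both arrays 0.27, 1 array left out -0.68 to 0.09), Ubl4b (-0.24, -0.44, -0.06 to 0.96), Slc6a17 (-0.26, -0.42, -0.20 to 0.26), Gnai3 (0.11, 0.20, -0.26 to 0.10) and Gpr61 (-0.027, -0.13, -0.07 to 0.28), for Csf1 (without both arrays 0.074, 1 array left out -0.32 to -0.05), for Ahcyl1 with averaged features (-0.013), and for Nqo1 (quantile normalization 0.0067, without both arrays 0.16, 1 array left out -0.47 to 0.18). The causes were not tested. No measure of signal over background was used here.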
